A study of Ambystoma californiense with 99 samples.

Results

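This set holds genes that were nearly silent in 1 parental salamander and expressed in the other. A feature was a member when its mean level in control libraries was at least 3 CPM (counts scaled to a library total of 1e+06) in BTS and below 0.2 CPM in CTS, in brain or in muscle. Of the 23251 features counted, 82 met this rule: 63 in brain and 24 in muscle, 5 of them in both tissues. Names that begin with ZNF, HOX, HSP, KCN or COL were to be left out, and 0 features were removed for that reason. The same rule with the parents exchanged took 42 features in brain and 75 in muscle. The control CTS muscles that chose the 75 include those of animals 63 and 66, which stood apart in their markers (below). Their part in the 75 was not tested.

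RNA sequencing was done on whole brain and leg muscle of BTS animals, taken here to be the introduced barred tiger salamander, of native California tiger salamanders, Ambystoma californiense (CTS), and of their crosses. The question of the design was how expression responded to acute thermal stress, and heat was applied until an animal lost its righting response for 30 s. The labels give the sex of each animal but no age, origin or batch. Each library of a tissue came from a separate animal, so that the spread between libraries is that between animals.

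In brain there were 6 heated and 5 control BTS libraries, 2 heated and 1 control BTSbc (read here as backcrosses to BTS), 10 heated and 13 control F1 hybrids, 1 heated CTSbc (a backcross to CTS), and 5 heated and 5 control CTS. In muscle the numbers were 6 and 5 BTS, 2 and 1 BTSbc, 12 and 13 F1, 1 CTSbc, and 5 and 5 CTS. GEO lists every sample under Ambystoma californiense, and genotypes were taken from the genotype tag. The title of animal 76 says BTS where the tag says CTS. Animals 12, 26 and 30 are tagged BTSbc under titles that say BTS, BTS and F1, and animal 84 is tagged CTSbc under a title that says F1. For the F1 animal 64, the brain library is a control and the muscle library a heated one.

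Library totals lay between 3213005 and 13506066 counts in brain and between 1232774 and 20068304 in muscle. A brain library of heated F1 animal 16 held 5418 counts and a muscle library of heated F1 animal 11 held 66186, and both were left out of the levels and means below but stayed in the fits. The brain library of animal 16 held 130860 CPM of skeletal muscle markers, against 38.3 to 1761 CPM in the other brain libraries. Neuron markers summed to 4510 CPM or more in each of those others, and skeletal muscle markers to 105796 CPM or more in every muscle library described. The brain of heated CTS animal 7 held both the 1761 CPM of skeletal muscle markers and the 4510 CPM of neuron markers. Glia markers in heated brains had medians of 2112 CPM in F1 (1149 to 10687), 3732 CPM in BTS (2081 to 10419) and 6141 CPM in CTS (1237 to 7681). The part of glia in the brain levels was not tested. Some muscle libraries stood apart. In control CTS animal 66 the neuron markers summed to 180 CPM, against 1.84 to 6.81 CPM in the other CTS muscle libraries, and without this library 36 features meet the rule in muscle, the 24 members among them. Skin markers summed to 158 CPM in control BTS animal 68 (at most 19.1 CPM in the other BTS muscles), 274 CPM in control F1 animal 25 and 513 CPM in control CTS animal 63. The muscle of heated F1 animal 67 held 862 CPM of erythrocyte, 141 CPM of skin and 34.1 CPM of neuron markers. Without these 5 animals 38 features meet the rule in muscle, 21 of the members among them. The feature named homeobox was at 0.118 CPM in the muscle of heated F1 animal 2 and at 0.465 and 0.997 CPM in those of heated CTS animals 7 and 13, against 23.5 to 88.5 CPM in all other muscle libraries described.

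An F1 hybrid carries a genome copy from each parental species, and a backcross animal carries further copies of the species it was crossed to. Parental differences that persist between the copies inside a hybrid cell are known as cis effects, and those that vanish there as trans effects. The counts used here do not separate the parental copies, so the F1 level of a gene is the sum of both. Reads of an introduced species may also match the gene models less or more well than reads of the native one, which was not tested. In bulk tissue, fewer cells of a type and less RNA per cell cannot be told apart.

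The names of the members say little about function. Of the 82 members, 40 (48.8%) carry a LOC name, against 26.4% of all features and 28.6% of the features silent in BTS and expressed in CTS. A further 6 have no gene name and 3 are called hypothetical. For 38 members (46.3%) the same name stands on at least 1 other feature, against 32.1% of all features, and LOC105357518 stands on 68. Reads of near-identical copies may have been divided or lost in counting, so the levels of such features are uncertain. Words of retroelement proteins (reverse, endonuclease/reverse, ORF2, LINE-1) were on 5 members (6.10%) and on 1.91% of all features, a list put together after the names were seen. The separate list of domesticated or mobile elements held 0 members and 0.542% of all features. By name, 1 of 12 THAP domain genes and 1 of 20 features of the antigen presentation list were members. The tripartite motif, cytochrome P450, glutathione transferase, UGT and SULT, histone, protocadherin and solute carrier lists held no member, but the widest of them, solute carriers, covers 1.23% of all features, so their absence among 82 members says little. The GIMAP and NLR lists matched 0 and 2 features in all and could not be used.

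The thresholds cut a continuous range. In brain, the highest CTS control means among members were 0.182 CPM for LOC109925178, 0.180 for LOC106732455 and 0.176 for top1.2, and the nearest features outside were LOC102682806 at 0.202, LOC108706787 at 0.211 and LOC100145255 at 0.212. LOC106732455 at 3.02 CPM and LOC106531958 and LOC108696475 at 3.10 CPM were the members with the lowest BTS control means in brain. A copy of endonuclease/reverse at 3.00 (below the limit before rounding), serpinh1 at 2.98 and CD109 at 2.96 CPM lay just outside. In muscle, LOC106676398 at 0.193, mRNA00491 at 0.176 and LOC108710849 at 0.152 CPM had the highest CTS means, and the features named putative at 0.201, RSPH10B at 0.261 and LOC103185922 at 0.269 CPM were outside. The lowest BTS means inside were 3.12 CPM for LOC108710849, 3.40 for LOC100497531 and 3.50 for LOC105357518, and the nearest below 3 were mRNA01387 at 2.89, LOC102363715 at 2.69 and top1.2 at 2.65 CPM.

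**Figure D1:**
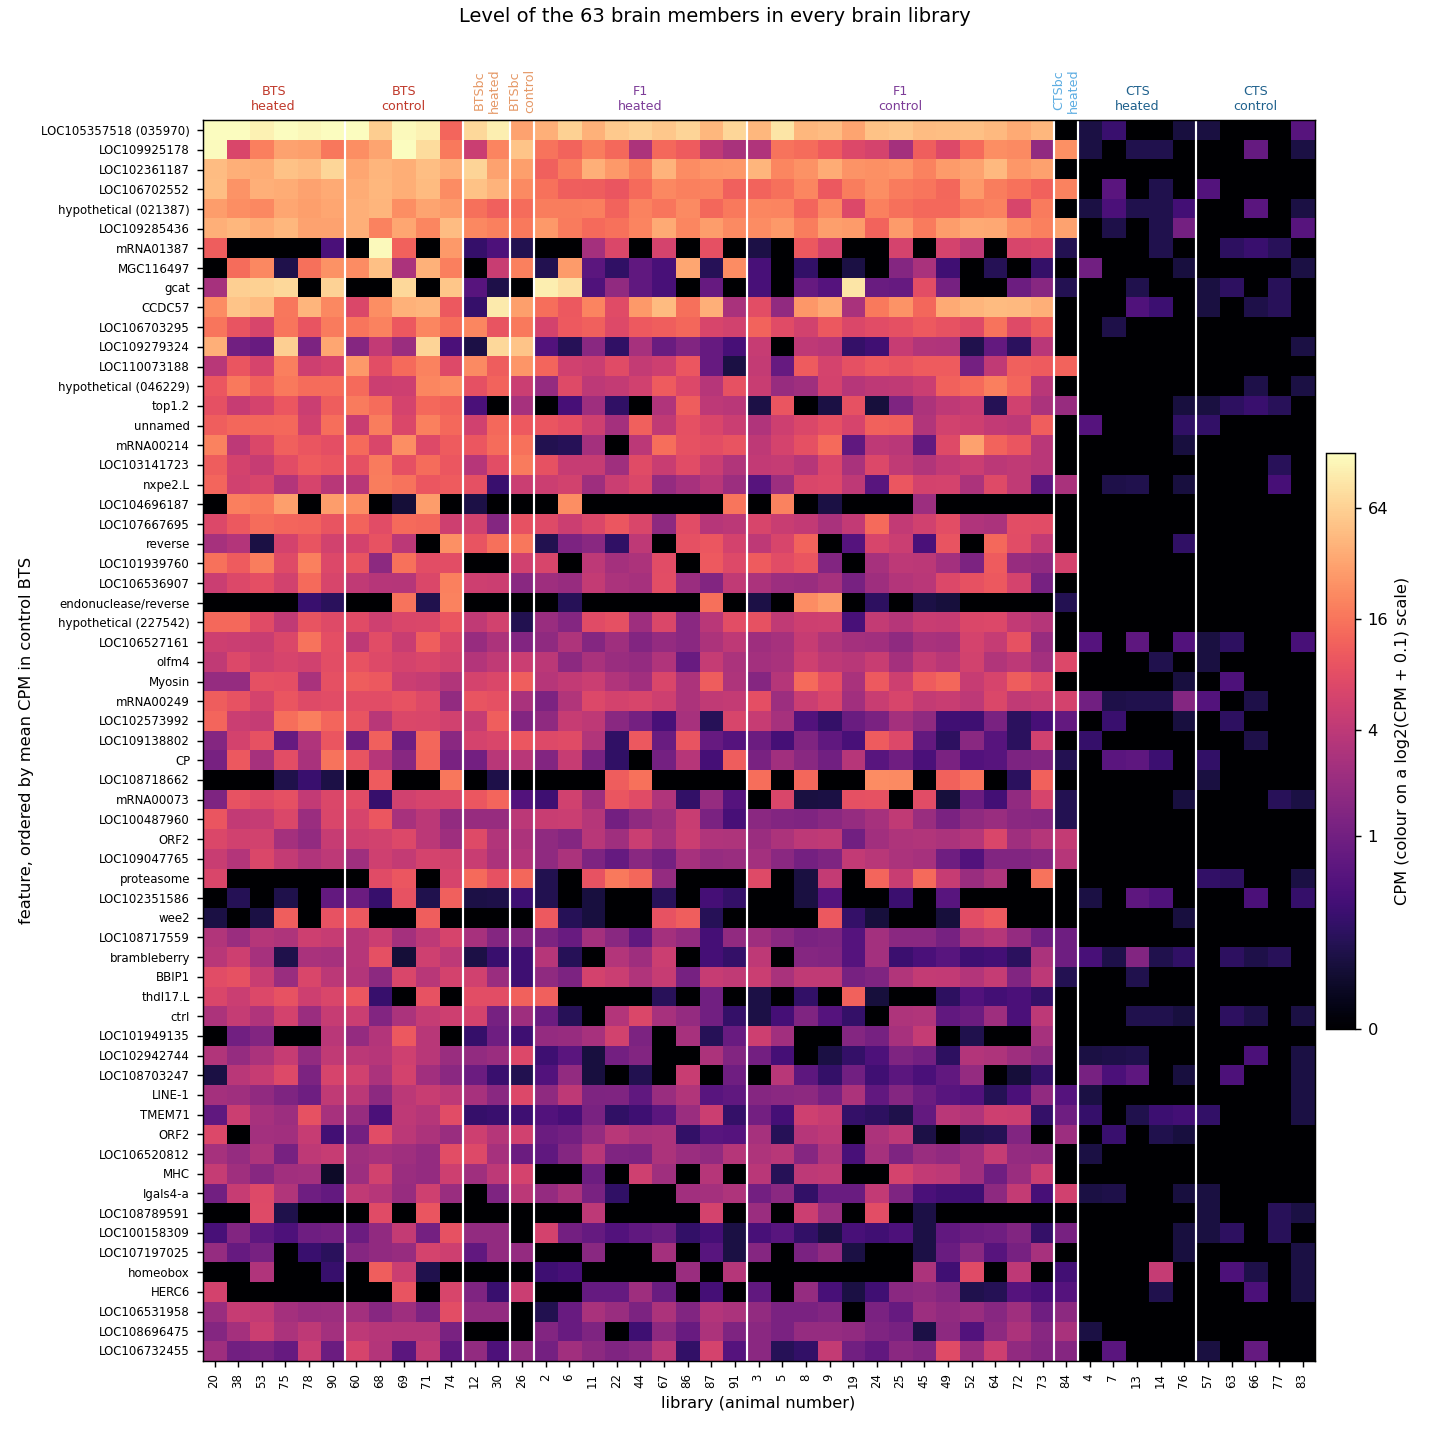
Levels of the 63 brain members in every brain library over 100000 counts, as log2(CPM + 0.1) on the colour scale, with libraries grouped from BTS through BTSbc, F1 and CTSbc to CTS. Most members are light in BTS, dimmer in F1 and black in CTS, and some are on in only a few BTS and F1 animals; the control BTS and CTS columns chose the rows.

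Control BTS and CTS libraries chose the members, so their difference is not a result. Heated animals of the same genotypes were not used by the rule. In heated brain, the BTS mean was at least 3 CPM for 45 of the 63 members, the CTS mean was below 0.2 CPM for 52, and both held for 37. No member reached a mean of 1 CPM in heated CTS brain, and 22 members had 0 counts in all 5 of those libraries. Over control and heated animals together, 16 brain members had 0 counts in every CTS library. The heated BTS mean was below 0.2 CPM for 3 members.

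Tested across all features with edgeR's quasi-likelihood test and Benjamini-Hochberg adjustment, 53 of the 63 brain members were higher in heated BTS than in heated CTS, where 9.89% of all 15496 tested features were, and 0 were lower (9.55% of all tested features were), also at an unadjusted p under 0.05 and in DESeq2. The median log2 difference over the 61 members that passed the filter on low counts was 6.66, against -0.01 over all tested features. Passing that filter depended on the libraries in which a member was high, so the median describes these libraries and is no test. The number called also rests on that filter. With only the libraries of the groups compared in the fit, 41 brain members passed it and all 41 were higher, where 9.44% of all tested features were. Members near 0 in heated CTS passed it through heated BTS, so that count was largely set by the filter. The other 12 called members were not tested there. Every heated BTS library was above every heated CTS library for 45 members, where 7.17% of all tested features showed this. Called differences ran from 2.68 ± 0.98 (SE, adjusted p = 0.047, edgeR) for brambleberry, known from zebrafish as a factor of nuclear fusion in early embryos, to 11.38 ± 0.49 (adjusted p = 1.7e-18, edgeR) for LOC102361187. Where heated CTS had 0 counts, as for LOC102361187, the size of the difference and its SE were set by the fit. Only a lower limit of such a difference can be measured. Among heated animals 5 of 6 BTS and 2 of 5 CTS were female, and sex was a term of the fit.

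In heated muscle the BTS mean was at least 3 CPM for 16 of the 24 members, the CTS mean was below 0.2 CPM for 22, and both held for 16. LOC106676398 was the only member with a mean of at least 1 CPM in heated CTS muscle, and 7 members had 0 counts in all 5 of those libraries. By edgeR's quasi-likelihood test, 21 of the 24 muscle members were higher in heated BTS than in heated CTS, where 14.7% of all 12554 tested features were, and 0 were lower (15.9% of all tested features were), also at an unadjusted p under 0.05 and in DESeq2. The median log2 difference over 23 tested members was 7.28, against -0.00 over all tested features. As in brain, passing the filter depended on the libraries in which a member was high. The median is therefore no test, and the number called rests on that filter. When only the libraries of the groups compared were fitted, 13 members passed the filter and 12 of them were higher, where 11.1% of all tested features were. The other 9 called members were not tested there. Members near 0 in heated CTS passed that filter through heated BTS, so the count of 12 was largely set by it. Without heated animals 2, 7 and 13, an exclusion that was not planned, 20 members were higher, where 11.6% of all tested features were. Every heated BTS library was above every heated CTS library for 14 members, where 12.5% of all tested features showed this.

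**Figure D2:**
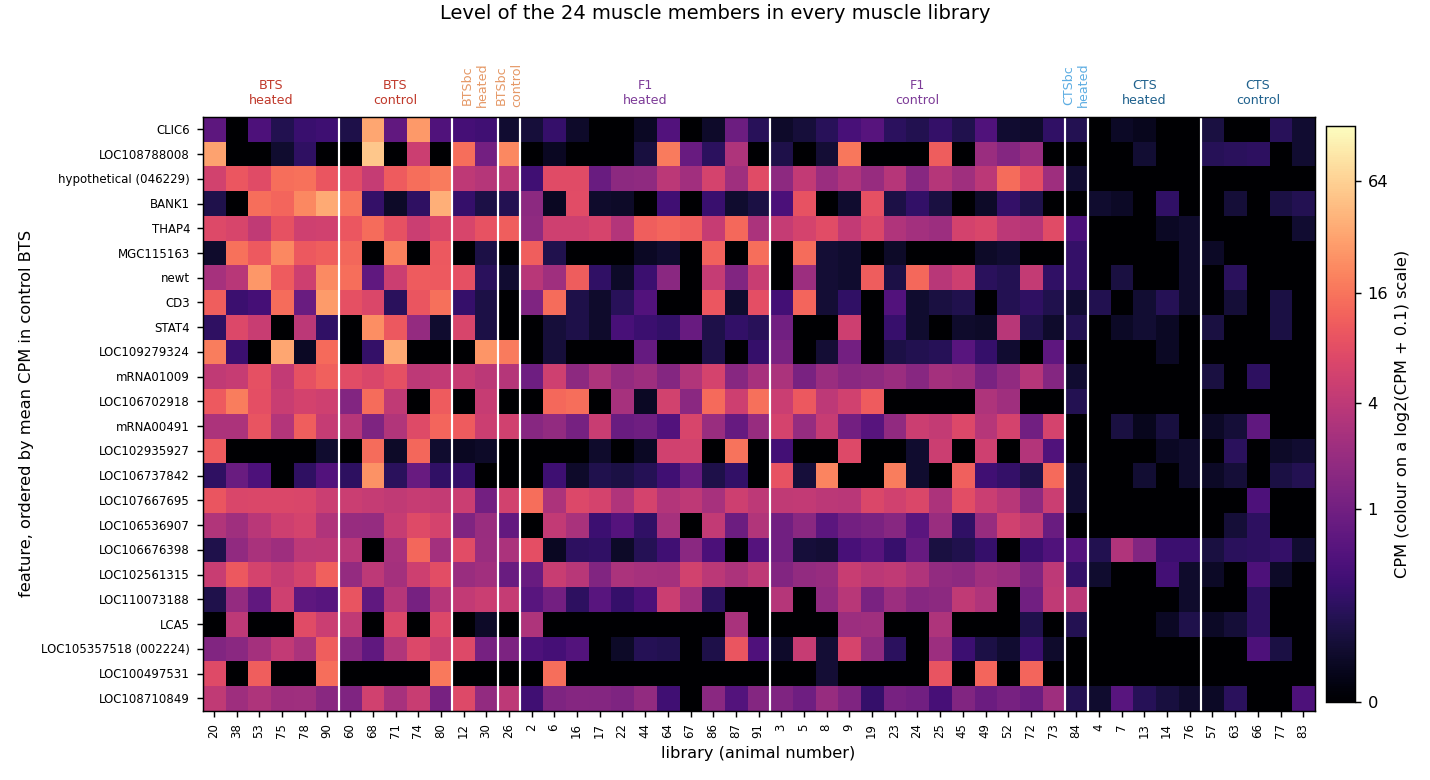
Levels of the 24 muscle members in every muscle library over 100000 counts, as log2(CPM + 0.1) on the colour scale, with libraries grouped from BTS through BTSbc, F1 and CTSbc to CTS. THAP4 and LOC107667695 are lit in every BTS and F1 library, while many other members are lit in some animals and black in others; the control BTS and CTS columns chose the rows.

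LOC106703295, an uncharacterised locus, is a member of the brain set. Heated BTS brains held 16.5, 9.23, 6.48, 16.5, 9.34 and 17.8 CPM (lowest 6.48, median 12.9), and heated CTS brains held 0.154 CPM in animal 7 and 0 in the other 4. Every heated BTS brain was far above every heated CTS brain, and control CTS brains were at 0 throughout. Heated F1 brains ran from 5.70 through a median of 10.3 to 13.0 CPM, and control F1 brains from 5.66 through 8.50 to 15.8 CPM. All F1 brains therefore lay above all CTS brains, and their range overlapped that of BTS. LOC106703295 was higher by 8.09 ± 0.51 in heated BTS than in heated CTS (log2, SE, adjusted p = 4.6e-15, edgeR) and by 7.61 ± 0.51 in heated F1 than in heated CTS (adjusted p = 5.3e-14, edgeR). The difference of heated F1 from heated BTS, -0.48 ± 0.23, did not pass the threshold (adjusted p = 0.25, edgeR). The locus was a brain signal: all muscle libraries were at 0 but that of control CTS animal 66, which held 0.234 CPM.

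LOC102361187, a further uncharacterised locus, had 0 counts in all 10 CTS brains. Heated BTS brains ran from 37.1 through a median of 47.8 to 69.5 CPM, heated F1 brains from 11.7 through 26.0 to 41.3 CPM, and control F1 brains from 20.1 through 26.8 to 44.2 CPM. The BTS and F1 ranges overlap at their ends, and CTS stands apart from both. Against the level that 3 counts over all heated CTS brains would give, heated BTS was at least 535-fold higher and heated F1 at least 283-fold higher. Heated F1 was 0.94 lower than heated BTS on the log2 scale (-0.94 ± 0.19, adjusted p = 0.0015, edgeR), and its mean was 52.8% of the BTS mean. In muscle all BTS libraries were at 0, and control CTS animal 66 held 0.937 CPM.

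LOC105357518 (feature AMEXTC_0340000035970) held 106 to 147 CPM in heated BTS brains (median 134), 38.5 to 71.0 CPM in heated F1 brains (median 58.0), and at most 0.308 CPM in heated CTS brains. The 3 groups did not overlap. The log2 difference was 9.80 ± 0.56 between heated BTS and heated CTS (adjusted p = 2.5e-17, edgeR) and -1.17 ± 0.26 between heated F1 and heated BTS (adjusted p = 0.0035, edgeR), with an F1 mean at 43.0% of BTS. Muscle repeated this order, with 11.7 to 37.7 CPM in heated BTS, 1.62 to 19.1 CPM in heated F1 and 0 in all heated CTS, although ranges of BTS and F1 overlapped there. It missed the muscle rule through control CTS animal 66, a library that stood apart, at 1.87 CPM, while the other 9 CTS muscle libraries were at 0. A second feature of the same name, AMEXTC_0340000002224, is the muscle member.

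THAP4 belongs to a family whose members carry a zinc-dependent DNA-binding domain, the THAP domain, and its protein also has a haem-binding nitrobindin domain. It is a member in muscle. Heated BTS muscles held 7.28, 6.45, 4.17, 8.89, 5.46 and 5.62 CPM, against at most 0.0807 CPM in heated CTS muscles. All BTS muscles were above all CTS muscles. Heated F1 muscles ran from 1.77 through a median of 5.45 to 13.4 CPM and control F1 muscles from 2.19 through 4.63 to 7.76 CPM. The heated F1 range encloses that of heated BTS. THAP4 was higher by 7.25 ± 0.64 in heated BTS (adjusted p = 5.7e-12, edgeR) and by 7.25 ± 0.61 in heated F1 (adjusted p = 6.9e-12, edgeR) than in heated CTS on the log2 scale. Its heated F1 mean was 113% of the heated BTS mean.

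In brain THAP4 had the same order of genotypes, with heated BTS at 2.11 to 5.85 CPM, heated F1 at 0.636 to 4.91 CPM and heated CTS at no more than 0.172 CPM. Its brain CTS control mean of 0.236 CPM kept it out of the brain set. The brain difference between heated BTS and heated CTS was 5.80 ± 0.60 on the log2 scale (adjusted p = 1.14e-09, edgeR). Heated F1 against heated BTS gave -0.78 ± 0.33 there (adjusted p = 0.164, edgeR), with F1 at 56.4% of the BTS mean. The 2 tissues were not tested against each other.

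**Figure D3:**
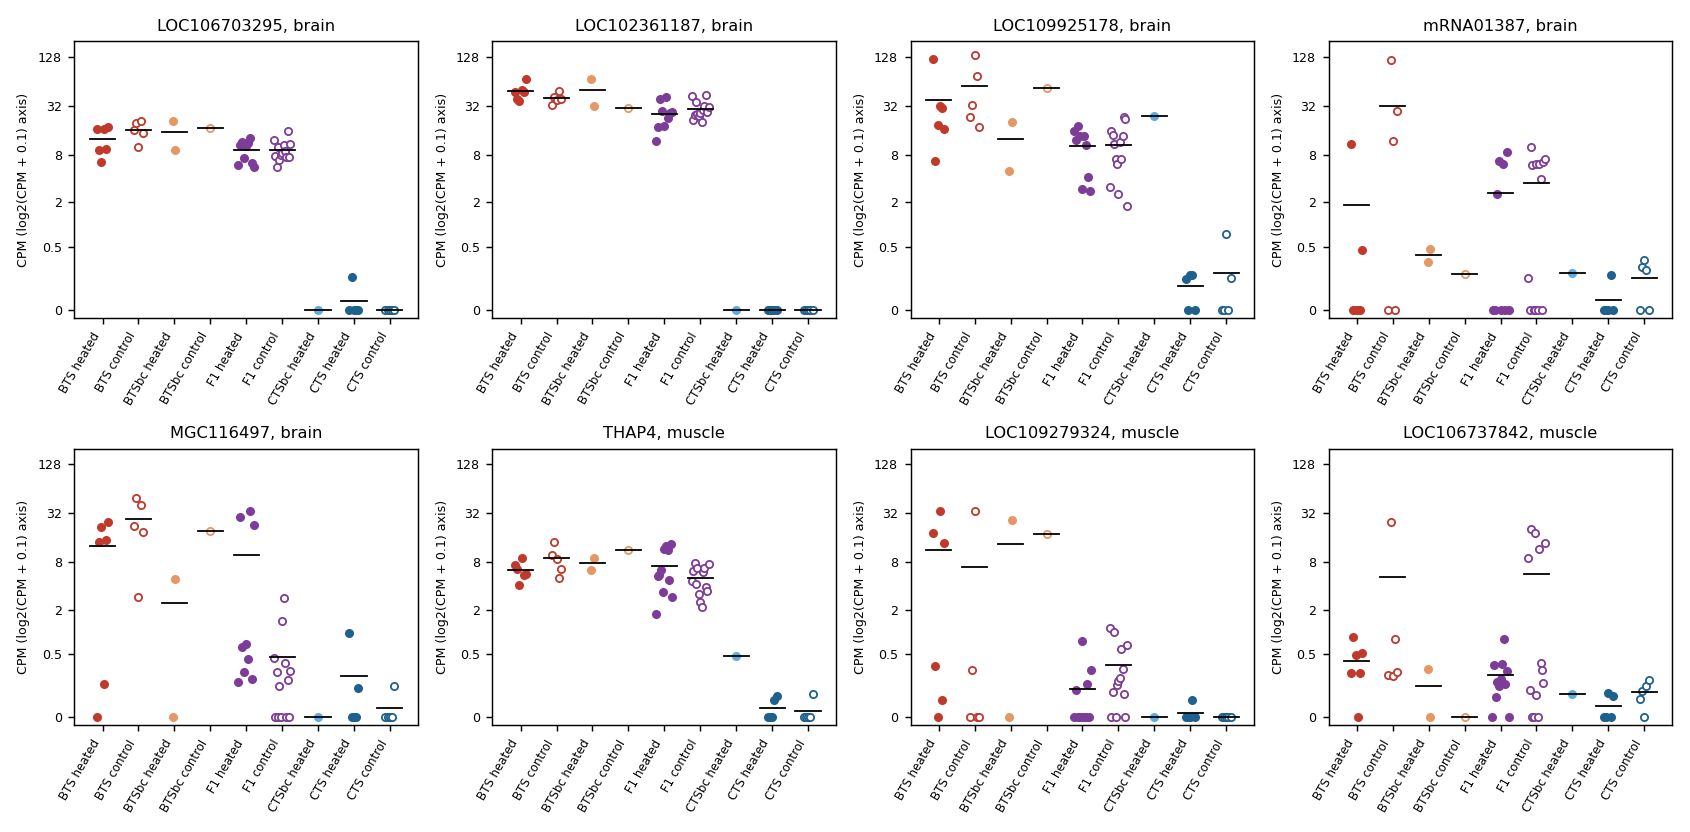
CPM per library of selected members, each point an animal and each bar a group mean, with genotypes from BTS to CTS and heated before control libraries. LOC106703295, LOC102361187 and THAP4 are present in every BTS and F1 library shown, while other members split BTS and F1 animals into high ones and ones at or near 0.

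Of the members in both tissues, LOC107667695, hypothetical (AMEXTC_0340000046229) and LOC106536907 were present in every BTS library of both tissues. LOC107667695 was at 6.90 to 14.1 CPM in heated BTS brains and 1.70 to 9.85 CPM in heated F1 brains, with 0 counts in all 10 CTS brains. In muscle it was at 5.02 to 9.43 CPM in heated BTS and 2.69 to 14.6 CPM in heated F1, with 0 counts in all heated CTS. Heated BTS stood over heated CTS by 8.91 ± 0.72 in brain and 8.95 ± 0.86 in muscle (log2, adjusted p = 2.3e-11 and 1.7e-10, edgeR). The feature named hypothetical differed by 9.55 ± 0.98 in brain and 9.77 ± 1.08 in muscle (adjusted p = 1.6e-09 and 9.8e-09, edgeR). Its heated F1 level was lower than in heated BTS in muscle (-1.50 ± 0.42, adjusted p = 0.016, edgeR), and the brain value of -1.26 missed the threshold (adjusted p = 0.057, edgeR). LOC106536907 differed by 8.68 ± 1.02 in brain and 8.38 ± 1.26 in muscle between heated BTS and heated CTS (adjusted p = 8.1e-08 and 2.6e-06, edgeR).

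LOC109279324 and LOC110073188, also members in both tissues, varied widely between animals. For LOC109279324, BTS animals 20, 75, 90 and 71 held 38.6, 62.8, 33.4 and 68.6 CPM in brain, and the other BTS brains held 0.460 to 4.25 CPM. The same 4 animals held 18.2, 34.3, 13.9 and 34.4 CPM in muscle, and the other BTS muscles no more than 0.322 CPM. High and low BTS animals were thus the same in both tissues. BTSbc animals 30 and 26 were high (72.3 and 53.7 CPM in brain, 26.4 and 17.6 CPM in muscle), and BTSbc animal 12 was at 0.145 CPM in brain and 0 in muscle. No heated F1 library exceeded 2.63 CPM in brain or 0.776 CPM in muscle. Control F1 brains of animals 3, 8, 9, 25, 45, 49 and 73 held 22 to 32 counts of LOC109279324. The other control F1 brains held at most 4 counts, and heated BTS brains of animals 38, 53 and 78 held 4 to 6. Its difference of heated F1 from heated BTS was the largest called in either tissue (-4.54 ± 0.91 in brain, adjusted p = 0.0015, and -6.15 ± 1.11 in muscle, adjusted p = 0.00019, edgeR). LOC110073188 ran from 3.66 to 18.9 CPM in heated BTS brains and from 0.139 to 12.7 CPM in heated F1 brains, and was at 0 in every CTS brain (8.51 ± 1.28 for heated BTS against heated CTS, adjusted p = 6.5e-06, edgeR).

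Brain members with an annotated function were few, and those below were chosen by their names with values already seen. CCDC57, a coiled-coil protein of the centrosome, ran from 16.9 to 52.8 CPM in heated BTS, from 2.78 to 46.4 CPM in heated F1 and to at most 0.515 CPM in heated CTS (7.93 ± 0.95 for BTS against CTS, adjusted p = 2.4e-08, edgeR). BBIP1, a small subunit of the BBSome, which carries membrane proteins into cilia, ran from 2.08 to 8.84 CPM in heated BTS and from 1.09 to 5.89 CPM in heated F1, and heated CTS reached 0.172 CPM (6.89 ± 0.73, adjusted p = 3.3e-09, edgeR). Neither group of expressing animals overlapped CTS. The secreted glycoprotein gene olfm4 ran from 4.22 to 8.07 CPM in heated BTS and from 0.814 to 4.57 CPM in heated F1, against at most 0.170 CPM in heated CTS (6.94 ± 0.53, adjusted p = 2.2e-13, edgeR). It was lower in heated F1 than in heated BTS by 1.16 on the log2 scale (-1.16 ± 0.26, adjusted p = 0.0048, edgeR). A DNA topoisomerase I gene, top1.2, ran from 4.71 to 10.9 CPM in heated BTS and from 0 to 10.9 CPM in heated F1, against at most 0.130 CPM in heated CTS (7.15 ± 1.40, adjusted p = 0.00018, edgeR). TMEM71, a transmembrane protein gene, had the smaller difference of 4.02 ± 0.97 (adjusted p = 0.0021, edgeR) and heated BTS values of 0.704 to 8.71 CPM.

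The muscle members BANK1 and STAT4 are known from immune cells. BANK1, a scaffold protein of B-cell receptor signalling, held 12.7 to 35.9 CPM in 4 heated BTS muscles (animals 53, 75, 78 and 90) and 15.7 and 38.8 CPM in control BTS animals 60 and 80, with the other BTS muscles at or near 0. Of the F1 muscles, animals 16, 5, 19 and 2 held 7.86, 9.11, 8.50 and 1.65 CPM. Most F1 animals were at CTS levels, which reached 0.257 CPM. BANK1 was higher in heated BTS than in heated CTS (6.80 ± 1.86, adjusted p = 0.0044, edgeR) and lower in heated F1 than in heated BTS (-3.91 ± 1.10, adjusted p = 0.014, edgeR). Without BTS animal 90 the second difference was -3.03 (adjusted p = 0.0904, edgeR). STAT4, a transcription factor that acts downstream of cytokine receptors, had a median of 2.06 CPM and a highest value of 7.09 CPM in heated BTS, and at most 0.811 CPM in heated F1 and 0.0997 CPM in heated CTS. Its differences were 5.73 ± 1.55 for heated BTS against heated CTS (adjusted p = 0.0039, edgeR) and -3.97 ± 0.97 for heated F1 against heated BTS (adjusted p = 0.0049, edgeR). The feature whose name begins with CD3 was higher by 5.97 ± 1.66 in heated BTS than in heated CTS (adjusted p = 0.005, edgeR).

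All 4 listed markers of immune cells (PTPRC, CD74, LCP1 and CORO1A) were matched, and they summed to 50.0 to 135 CPM in heated BTS muscles, 41.0 to 69.0 CPM in heated F1 muscles and 6.58 to 46.0 CPM in heated CTS muscles. Control muscles held 35.6 to 74.5 CPM in BTS, 30.7 to 280 CPM in F1 and 24.2 to 58.6 CPM in CTS. Heated BTS thus lay above heated CTS, and the control groups overlapped. Control F1 animal 3, with the highest sum, held 0.463 CPM of BANK1, 0.386 CPM of CD3 and 13 counts of STAT4. For STAT4, other control F1 muscles held up to 61 counts and CTS muscles at most 2. The part of immune cells in the levels of BANK1, STAT4 and CD3 was not tested. In brain, BANK1 was present in all genotypes, with 1.57 to 6.54 CPM in heated BTS and 0.770 to 1.71 CPM in heated CTS (1.73 ± 0.39, adjusted p = 0.000953, edgeR). Brain STAT4 and CD3 differed by 2.54 ± 0.85 (adjusted p = 0.0287) and 4.20 ± 0.75 (adjusted p = 4.82e-05, edgeR) in the same direction.

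Several members were on or off by animal rather than even within BTS. In brain 35 of the 63 members were at 1 CPM or more in every BTS library, and 17 had at least 1 BTS library with 0 counts. In muscle the numbers were 8 and 12 of the 24 members. These counts include the control BTS libraries that chose the members, and they were not compared with features of like level outside the set. Among F1 libraries, 17 brain and 2 muscle members were at 1 CPM or more throughout, and 17 brain and 10 muscle members had 0 counts in at least 5 libraries.

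The gene gcat encodes glycine C-acetyltransferase, a mitochondrial enzyme of threonine breakdown. BTS brains of animals 38, 53, 75, 90, 69 and 74 held 54.5 to 72.0 CPM, that of animal 20 held 2.68 CPM, and those of animals 78, 60, 68 and 71 held 0. Among F1 brains, animals 2, 6 and 19 held 99.6, 81.6 and 88.8 CPM and animal 45 held 8.13 CPM. High values therefore occurred in some BTS and a few F1 animals and in no CTS animal, which reached 0.234 CPM. Heated BTS against heated CTS gave 9.93 ± 2.86 on the log2 scale (adjusted p = 0.01, edgeR). Muscle had 0 counts in every CTS library and a heated BTS median of 9.67 CPM.

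The unnamed feature mRNA01387 was at 10.8 and 0.444 CPM in heated BTS brains of animals 20 and 90, and at 119, 11.8 and 27.8 CPM in control BTS brains of animals 68, 69 and 74. The other BTS brains were at 0. Heated F1 brains ran from 0 through a median of 0 to 8.54 CPM, and control F1 brains from 0 through 3.99 to 10.01 CPM. Of the 20 F1 animals with both tissues under the same tags, 8 were at 1 CPM or more in brain and in muscle, 9 had 0 counts in both, and none was on in 1 tissue and at 0 in the other. Brain and muscle thus marked the same animals. Its heated difference between BTS and CTS was not called (6.15 ± 2.39, adjusted p = 0.066, edgeR).

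Other brain members on in some animals and off in others were LOC108718662 and endonuclease/reverse (AMEXTC_0340000179256). For LOC108718662 the tissues did not mark the same animals throughout. Of the 20 F1 animals with both tissues, 3 were at 1 CPM or more of LOC108718662 in brain and in muscle. It was on in brain and at 0 in muscle in 2, and on in muscle and at 0 in brain in 1. Endonuclease/reverse was at 1 CPM or more in 3 of these F1 brains and 0 of their muscles. No muscle library held more than 2 counts of it, so muscle could not show whether the same animals were marked. LOC108718662 was at 10.6 and 17.0 CPM (70 and 74 counts) in BTS animals 68 and 74. No heated BTS brain exceeded 2 counts of it. It was also high in F1 animals. Heated F1 brains of animals 22 and 44 held 43 and 89 counts. Control F1 brains of animals 3, 8, 24, 25, 49, 52 and 73 held 102, 98, 190, 138, 99, 90 and 88 counts. The remaining F1 brains held at most 2 counts. Endonuclease/reverse was at 16.0 and 20.0 CPM in BTS animals 69 and 74. In F1 animals 87, 8 and 9 it was at 14.9, 22.8 and 28.8 CPM. The kinase gene wee2, known in mammals as a brake on cell division in oocytes, held 8.96 to 11.4 CPM in BTS animals 75, 90, 60 and 71 and 7.97 to 11.4 CPM in F1 animals 2, 67, 86, 9, 52 and 64. LOC104696187 held 17.1 to 30.5 CPM in BTS animals 38, 53, 75, 90, 60 and 71 and 23.7, 16.3, 19.8 and 2.22 CPM in F1 animals 6, 91, 5 and 45. The 8 tested brain members not called between heated BTS and heated CTS were homeobox, LOC108718662, endonuclease/reverse, HERC6, LOC108789591, proteasome, mRNA01387 and wee2. LOC102351586, one of the 2 brain members that did not pass the filter, was at 9.12 and 11.7 CPM in BTS animals 69 and 74.

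Muscle members split likewise. CLIC6, of the chloride intracellular channel family, entered the set through control BTS animals 68 and 74, at 33.6 and 28.0 CPM, while all other BTS muscles were at or below 0.729 CPM, and it was too low elsewhere to be tested. Skin markers were high in the same muscle of animal 68 (158 CPM), and their part in the levels of that library was not tested. In brain CLIC6 was expressed in all genotypes, with 34.9 to 118 CPM in heated BTS and 3.25 to 41.4 CPM in heated CTS. LOC108788008 held 31.8 CPM in heated BTS animal 20 and 56.4 and 5.11 CPM in control BTS animals 68 and 74, and its called difference of heated F1 from heated BTS, -4.56 ± 1.46 (adjusted p = 0.033, edgeR), became 2.26 (adjusted p = 0.552) without animal 20. Without sex in the model that difference was -1.57 (adjusted p = 0.445, edgeR), and leaving out F1 animal 16, 17, 22, 44 or 91 gave adjusted p-values of 0.0501 to 0.055. Its difference between heated BTS and heated CTS was 3.37 without animal 20 (adjusted p = 0.504, edgeR). MGC115163 ran from 0.0827 through a median of 10.8 to 21.7 CPM in heated BTS and from 0 through 0.0646 to 14.4 CPM in heated F1, with at most 0.0807 CPM in heated CTS (8.25 ± 2.40 for BTS against CTS, adjusted p = 0.0071, edgeR). LCA5, a gene of the photoreceptor cilium in mammals, ran from 0 through 1.99 to 7.60 CPM in heated BTS and reached 0.161 CPM in heated CTS (5.46 ± 1.96, adjusted p = 0.03, edgeR). DESeq2 gave LCA5 an adjusted p of 0.141, and edgeR 0.0916 without heated animals 2, 7 and 13.

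**Figure D4:**
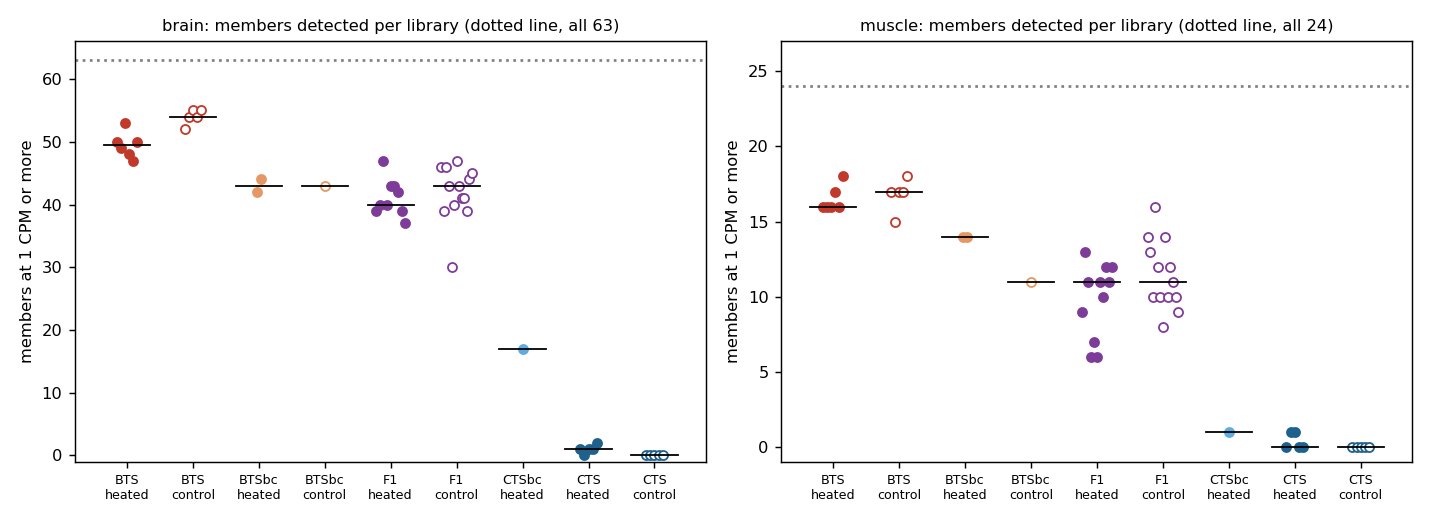
Number of members at 1 CPM or more in each library over 100000 counts, for the 63 brain and the 24 muscle members, with each point an animal and each bar the group median. BTS animals hold most members, BTSbc and F1 fewer, and CTS animals 0 to 2; control BTS and CTS libraries were used to choose the members.

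Counting members at 1 CPM or more in each library placed most hybrids between the parents. Heated brains held 47 to 53 of the 63 members in BTS (median 49.5), 42 and 44 in BTSbc, 37 to 47 in F1 (median 40), 17 in the CTSbc animal and 0 to 2 in CTS. Control brains held 52 to 55 in BTS, 43 in BTSbc, 30 to 47 in F1 and 0 in CTS. Heated muscles held 16 to 18 of the 24 members in BTS, 14 and 14 in BTSbc, 6 to 13 in F1 (median 11), 1 in CTSbc and 0 to 1 in CTS. Every F1 library thus held more members than any CTS library in both tissues. Backcross groups of 1 or 2 libraries were not tested.

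The single CTSbc animal, 84, held some members and lacked others. Its brain held 32.0 CPM of LOC109285436, 24.0 of LOC109925178, 19.8 of LOC106702552 and 12.2 of LOC110073188, levels inside the range of heated F1 brains for all but LOC109925178, which reached 18.1 CPM there. It had 0 counts of LOC106703295, LOC105357518 (AMEXTC_0340000035970) and CCDC57. Its muscle held 1 member over 1 CPM, LOC110073188 at 3.81 CPM, and THAP4 at 0.465 CPM. Between BTSbc brains, CCDC57 ranged from 0.291 CPM in animal 12 to 94.5 CPM in animal 30.

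**Figure D5:**
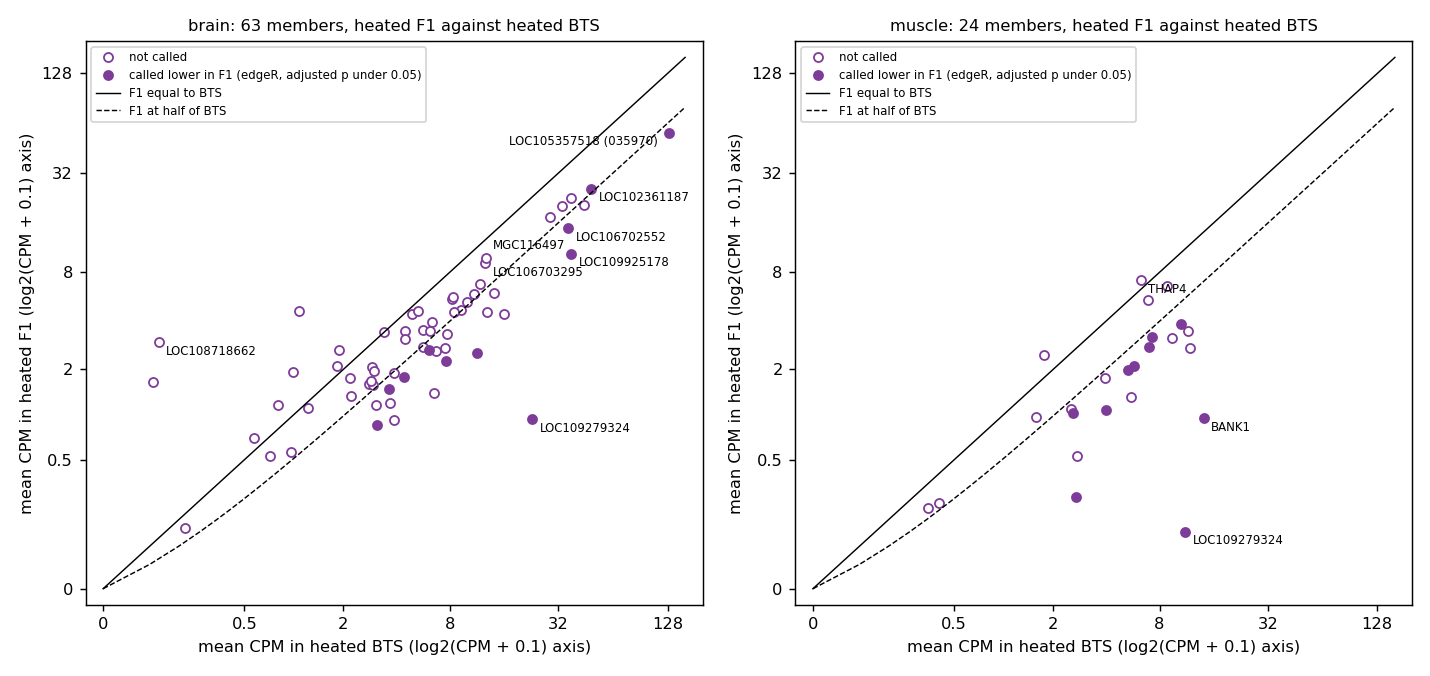
Mean CPM in heated F1 against mean CPM in heated BTS for the 63 brain and 24 muscle members, on log2(CPM + 0.1) axes; the solid line marks equal levels, the dashed line a 2-fold lower F1 level, and filled points the members called lower in F1. Most points lie between or near the 2 lines, and LOC109279324 lies far below both in each tissue.

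Heated F1 brains held most of the brain members at 1 CPM or more, and heated F1 muscles a median of 11 of the 24 muscle members. By edgeR's quasi-likelihood test, 46 of the 63 brain members were higher in heated F1 than in heated CTS, where 4.6% of all tested features were, and 13 of the 24 muscle members were, where 14.2% of all tested features were. In edgeR and DESeq2, with or without adjustment, 0 members were lower, where 3.21% of all tested features were in brain and 12.6% in muscle. Called differences ran in brain from 2.65 on the log2 scale for LOC106527161 (adjusted p = 0.000812, edgeR) to 10.44 for LOC102361187 (adjusted p = 5.9e-17, edgeR), and in muscle from 1.83 for LOC108710849 to 9.08 for LOC106702918. Median log2 differences over the tested members were 6.10 in brain and 5.04 in muscle. Passing the filter again depended on the libraries in which a member was high, so these medians are no test. With only the groups compared in the fit, 34 brain members passed the filter and all 34 were higher, where 2.64% of all tested features were. In muscle 10 passed and 9 were higher, where 11.8% of all tested features were. Members near 0 in heated CTS passed that filter through heated F1, so these counts were largely set by the filter. Of the called members, 12 in brain and 3 in muscle were not tested there. Without heated animals 2, 7 and 13, 10 muscle members were higher, where 9.49% of all tested features were. Every heated F1 library was above every heated CTS library for 30 brain members, where 1.74% of all tested features showed this, and for 6 muscle members, where 2.92% did. The same heated CTS libraries served both this comparison and that of BTS with CTS.

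Against heated BTS, 11 of the 63 brain members were lower in heated F1, where 1.79% of all tested features were, and 10 of the 24 muscle members were lower, where 4.79% of all tested features were. By edgeR and by DESeq2, 0 members were higher, where 3.32% of all tested features were in brain and 6.89% in muscle. At an unadjusted p under 0.05, 1 brain and 0 muscle members were higher with either tool, and the share of all tested features at that limit is not given here. With only the groups compared in the fit, 49 brain members passed the filter and 10 were lower, where 1.19% of all tested features were. In muscle 15 passed and 7 were lower, where 2.98% of all tested features were. Passing that filter also depended on the libraries in which a member was high. The median log2 difference over tested members was -0.77 in brain and -1.50 in muscle, against -0.00 and 0.01 over all tested features. Beside LOC109279324, LOC102361187, LOC105357518 and olfm4, brain members called lower in F1 included LOC106702552 (-1.24 ± 0.26, adjusted p = 0.0018, edgeR), LOC109925178 (-1.79 ± 0.52, adjusted p = 0.032, edgeR) and LOC102573992 (-2.05 ± 0.49, adjusted p = 0.007, edgeR). LOC109925178 held 122 CPM in heated BTS animal 20, and without that animal its difference was -0.97 (adjusted p = 0.304, edgeR). LOC106702552 was at 25.7 to 48.9 CPM in heated BTS brains and 9.59 to 21.8 CPM in heated F1 brains, which did not overlap. LOC102573992 was at 4.55 to 19.0 CPM in heated BTS and 0.199 to 6.39 CPM in heated F1. In muscle, mRNA01009 was at 4.14 to 11.7 CPM in heated BTS and 0.944 to 6.14 CPM in heated F1 (-1.35 ± 0.31, adjusted p = 0.0032, edgeR).

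The heated F1 mean was between the parental means for 53 of the 63 brain members and 22 of the 24 muscle members, and above both for 8 and 2. An F1 mean above CTS (61 brain and 24 muscle members) needed little expression, as the rule chose members near silent in CTS. The heated F1 mean was below the heated BTS mean for 54 and 22. As a share of the heated BTS mean, the heated F1 mean had a median of 57.8% over the brain members (quartiles 41.7% and 72.7%) and 38.2% over the muscle members (quartiles 26.6% and 59.3%). Over all tested features the medians were 97.7% and 103%. In control libraries, whose BTS values chose the members, the medians were 46.2% in brain and 36.2% in muscle. A 2-fold lower level is -1 on the log2 scale. The 95% interval of the log2 difference between heated F1 and heated BTS held -1 but not 0 for 25 brain members, both for 31, 0 but not -1 for 1 and neither for 4. In muscle these counts were 11, 6, 1 and 4, with no interval for THAP4, whose difference was -0.00. For the features silent in BTS and expressed in CTS, the heated F1 mean had a median of 41.3% of the heated CTS mean in brain and 72.6% in muscle (59.9% with TMM scaling). In control libraries, whose CTS values chose those features, the medians were 32.6% and 4.93%. The part of control CTS muscles 63 and 66, which stood apart in their markers, in the muscle value was not tested.

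After adjustment, few members were called between heated and control F1. In brain 1 of the 63 members was higher in heated than in control F1, where 0.0452% of all tested features were. In brain 0 were lower, where 0.00645% of all tested features were. In muscle 0 of the 24 members were higher, where 0.104% of all tested features were, and 1 was lower, where 0.0159% of all tested features were. DESeq2 called the same numbers. At an unadjusted p under 0.05, edgeR gave 2 brain members higher and 3 lower, and DESeq2 2 and 2. In muscle edgeR gave 1 member higher and 7 lower at that limit, and DESeq2 1 and 6. The share of all tested features at that limit is not given here, so these counts are not read as a result about the members. Median log2 differences between heated and control F1 were -0.08 over the tested brain members and -0.13 over the tested muscle members. The test of a different heat response in BTS and F1 called 0 members in either tissue, where it called 0% of all tested features in brain, and 0.00797% as higher and 0.00797% as lower in muscle. The control BTS libraries in this test also chose the members, so the BTS heat response is biased by that choice. Its outcome is therefore only a flag for a closer look and no result about the members. At an unadjusted p under 0.05, edgeR gave 3 brain and 3 muscle members and DESeq2 2 and 5 (both directions), again without the share of all tested features at that limit. DESeq2 called 0 after adjustment.

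MGC116497 was the brain member higher in heated F1. Heated F1 animals 6, 86 and 91 held 28.4, 33.9 and 23.1 CPM and the other heated F1 brains at most 0.701 CPM, against 2.81 and 1.44 CPM in control F1 animals 45 and 25 and at most 0.434 CPM in the other control F1 brains. The difference rested on these 3 animals, and the groups overlapped. It was 4.45 ± 0.87 on the log2 scale (adjusted p = 0.02, edgeR). Without animal 6, 86 or 91 in turn the adjusted p was 0.096, 0.0934 and 0.0962, and without F1 animal 9, 11 or 22 it was 0.052, 0.0544 and 0.055. Without sex in the model it was 0.0611. In BTS the gene varied between animals in both treatments, with 0, 14.3, 21.8, 0.160, 14.9 and 24.7 CPM in heated and 22.6, 49.8, 2.90, 40.2 and 18.6 CPM in control brains. In muscle, where it is no member, heated F1 animals 6, 16, 86 and 91 held 2.18, 3.27, 1.92 and 3.47 CPM, and control F1 muscles at most 0.169 CPM (5.24 ± 0.97, adjusted p = 0.00766, edgeR). Animals 6, 86 and 91 were thus high in both tissues.

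LOC106737842 was the muscle member lower in heated F1. No heated F1 muscle exceeded 0.811 CPM, whereas control F1 animals 3, 8, 23, 45 and 73 held 9.02, 20.2, 18.0, 11.5 and 13.8 CPM and the other control F1 muscles at most 0.364 CPM. The low control animals overlapped with the heated ones. Heated against control F1 gave -5.35 ± 1.01 (adjusted p = 0.0068, edgeR). Its BTS level rested on control animal 68 at 24.8 CPM, the library with 158 CPM of skin markers, and heated BTS against heated CTS was not called (3.32 ± 1.96, adjusted p = 0.2, edgeR). In brain, where LOC106737842 is no member, animal 68 was also the highest BTS animal, with 74 counts against 5 to 17 in the others. Control F1 brains of animals 3, 45 and 73 held 48, 41 and 63 counts. That of animal 8 held 11, and that of animal 25, low in muscle, held 47. In heated CTS muscle LOC106676398 was the other member not called, with 3.12 and 1.40 CPM in heated CTS animals 7 and 13 (0.47 ± 1.06, adjusted p = 0.78, edgeR). These are the CTS muscles with little of the homeobox feature, and heated F1 animal 2, the F1 muscle with little of it, held 8.38 CPM. Without these 3 animals LOC106676398 was higher in heated BTS than in heated CTS (3.08 ± 0.95, adjusted p = 0.015, edgeR) and lower in heated F1 than in heated BTS (-3.26 ± 0.62, adjusted p = 0.00034, edgeR). That exclusion was not planned and took out the highest heated CTS and heated F1 values of LOC106676398. Both calls were therefore favoured in advance and are no test.

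Some muscle members were expressed in CTS brain. Of the 19 features that are members in muscle only, 17 had a BTS mean of at least 1 CPM in brain, heated or control, 14 had such an F1 mean and 9 such a CTS mean. Of these 19, 17 were tested in brain, and the difference between heated BTS and heated CTS was called higher for 11 (9.89% of all tested features were), among them LOC108788008, mRNA00491 and mRNA01009, and LOC102561315 was lower in heated BTS brain (-2.84 ± 0.82, adjusted p = 0.0103, edgeR), as 9.55% of all tested features were. Of the 58 features that are members in brain only, 20 had a BTS mean of at least 1 CPM in muscle, 3 had such a CTS mean, and 18 were below 0.2 CPM in all heated and control means of BTS, F1 and CTS. Of these 58, 28 were tested in muscle, and the difference was called higher for 19 (14.7% of all tested features were) and lower for 1 (15.9% were), LOC108703247 (-3.86 ± 0.97, adjusted p = 0.0021, edgeR). Heated CTS muscles of animals 7 and 13 held 18.9 and 14.0 CPM of LOC108703247 and the other 3 held 0.714 to 3.15 CPM, and without heated animals 2, 7 and 13 the difference was -1.16 ± 0.64 (adjusted p = 0.189, edgeR). CCDC57 in muscle, at 0.322 to 3.06 CPM in heated BTS and 0 counts in all heated CTS, differed by 7.12 ± 1.09 (adjusted p = 3.42e-06, edgeR). The feature whose name begins with MHC differed by 7.85 ± 1.85 in muscle (adjusted p = 0.00125) and by 6.98 ± 1.84 in brain (adjusted p = 0.0058, edgeR), with 0 counts in every CTS library of both tissues.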

How the data were processed

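The deposited tables hold raw read counts per gene model, 1 table for brain (48 columns) and 1 for muscle (50 columns). Of the 99 samples in the labels, that of the brain of animal 17 (F1) is not analysed here. The submitters' processing notes name Trimmomatic, FastQC, STAR and HTSeq; the sources used here give no versions, counting options or genome build. Per the labels' protocols, libraries were stranded mRNA libraries read as single 100 bp ends. Sequences are not shown, as no reference was used here. Some names are cut to their first word by the deposited table.

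From the counts, CPM of the library total was computed. Levels and means use libraries of at least 100000 counts. Features were tested in R 4.3.3 with edgeR 4.0.16 (filterByExpr, TMM scaling, quasi-likelihood test, group and sex in the model, all BTS, F1 and CTS libraries of a tissue), which left 15496 brain and 12554 muscle features. Adjusted p-values are Benjamini-Hochberg values over all tested features of a contrast, and the two-sided threshold was 0.05. Standard errors were derived from the log2 difference and its F statistic. For a group without counts, the size of the log2 difference, and so its standard error, is set by the fit and is not measured. The code was tested on simulated data. DESeq2 1.42.0, other scaling, filters, models and samples were alternatives. Counts of every pair of replicates differed by more than sampling noise, with a chi-square of at least 8.33 per degree of freedom.

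The members and gene lists were chosen with earlier results of these data known. Named members are LOC106703295 and THAP4, the 10 per tissue with the highest control BTS mean, those in both tissues, up to 5 per tissue with a heated F1 mean below 0.2 CPM or over 1.5 times that of BTS, those called for heat in F1, up to 5 per tissue not called between heated BTS and heated CTS, and up to 5 per tissue with F1 libraries split between 0 counts and at least 1 CPM. Other genes were named after their values were seen. Intervals of log2 differences come from the edgeR fit and include the spread between animals. Limits from counts of 0 cover counting error only.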

Additional observations from a re-analysis of the deposited data

Results flagged for a closer look

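Of 104 groups of 4 to 10 libraries examined for the named members, 18 held 1 library far from the rest. BTS animals 20, 68, 71 and 74 recurred among them. Many of these members were named for high control BTS means or for splits between animals. Control BTS libraries also chose the set, so the number of such groups was not set against chance.

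Heated BTS animal 20 stood above its group in brain for LOC109925178 (122 CPM, the next library at 32.3), mRNA01387 (10.8, next 0.444) and proteasome (6.62, next 0). In muscle the same animal stood out for LOC108788008 (31.8 CPM, next 0.245) and LOC102935927 (10.6, next 0.0865). Without animal 20, the heated BTS against CTS difference of LOC102935927 was 0.75 on the log2 scale (adjusted p = 0.976, edgeR). Control BTS animal 68 stood above its group for mRNA01387 in brain (119 CPM, next 27.8) and, in muscle, for LOC108788008 (56.4, next 5.11) and LOC106737842 (24.8, next 0.825).

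Control BTS animal 71 was the high animal for LOC109279324 in both tissues, at 68.6 CPM in brain (next 4.25) and 34.4 CPM in muscle (next 0.280). Control BTS animal 74 stood out for LOC106536907 in brain (19.5 CPM, next 6.76) and for LOC106676398 in muscle (13.0, next 3.72). Heated BTS animal 90 held 3.70 CPM of LOC101949135 in brain (next 1.38), and heated BTS animal 75 held 5.42 CPM of LOC110073188 in muscle (next 1.93).

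Among heated F1 brains, animal 67 held 8.05 CPM of LOC106536907 (next 4.48), animal 87 held 14.9 CPM of endonuclease/reverse (next 0.205), and animal 22 held 5.70 CPM of LOC101949135 (next 2.71). One CTS library was set apart: heated animal 76, titled BTS and tagged CTS, held 1.04 CPM of LOC109285436 in brain, the next heated CTS brain holding 0.170 CPM. That level is far below the 31.6 to 44.1 CPM of the heated BTS brains.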

How the results depend on the processing

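The size of the set follows its thresholds. With a CTS limit of 0.5 CPM it held 104 brain and 44 muscle features, with a BTS limit of 5 CPM 35 and 15, and with a BTS limit of 2 CPM 41 in muscle. Leaving out each control BTS or CTS library in turn gave 61 to 69 brain and 21 to 36 muscle features. The median F1 level as a share of BTS in brain was 57.8% in heated libraries and 46.2% in control ones. With only the groups compared, 12 muscle members were called between heated BTS and heated CTS in place of 21, and the F1 heat calls (MGC116497 higher in brain, LOC106737842 lower in muscle) numbered 0, because 9 of the 21 and both of these features did not pass the filter of that fit. Without muscle animals 25, 63, 66, 67 and 68 (chosen after the data were seen) the set held 38 features in muscle. Without sex the brain heat call was also 0, for a cause that was not tested.

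Leaving out each library in turn gave, in brain, 50 to 53 members higher in heated BTS than in heated CTS, 41 to 46 higher in heated F1 than in heated CTS, 8 to 12 lower in heated F1 than in heated BTS, and 0 to 1 higher and 0 to 0 lower in heated than in control F1. The muscle ranges were 19 to 21, 11 to 13, 8 to 12, 0 to 2 (2 without control F1 animal 5) and 1 to 1. The difference of LOC108788008 between heated F1 and heated BTS turned to 2.26 without BTS animal 20. Of the other values for named members, 703 of those under other settings kept their direction and side of the threshold, 17 lost the call and 2 gained it, and with a library left out 980 kept it, 67 lost it and 1 gained it. Losses were most frequent in F1 or BTS against CTS, for proteasome, gcat, MHC and LOC101949135 in brain and for LCA5 in muscle. No paired analysis was possible because each animal belongs to 1 genotype and treatment within a tissue and the labels give no replicate numbers. Groups of 5 or 6 parental animals and of 1 or 2 backcross libraries limit what on and off animals can show.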

Other observations

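Of the 5 members whose names are words of retroelement proteins, 4 were higher in heated BTS than in heated CTS brain by edgeR's quasi-likelihood test, where 53 of all 63 brain members and 9.89% of all tested features were. The ORF2 feature AMEXTC_0340000025333 held 1.87 to 6.76 CPM in heated BTS, 1.43 to 5.16 CPM in heated F1 and 0 counts in every heated CTS brain (7.94 ± 0.71, adjusted p = 2.3e-10). LINE-1 held 0.934 to 4.22 CPM in heated BTS and 0.596 to 4.09 CPM in heated F1, against at most 0.142 CPM in heated CTS (5.59 ± 0.81, adjusted p = 1.4e-06). The differences were 5.95 ± 1.56 for reverse, 4.27 ± 1.27 for the second ORF2 feature and, not called, 3.41 ± 4.31 for endonuclease/reverse (adjusted p = 0.0051, 0.014 and 0.67).

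Further brain members showed the range of hybrid levels. The feature thdl17.L held 4.91 to 8.95 CPM in heated BTS brains, and in heated F1 brains it ran from 0 through a median of 0 to 11.5 CPM. Control BTS brains also split by animal, with 68 and 52 counts in animals 60 and 71 and at most 2 in animals 68, 69 and 74. LOC103141723 ran from 4.69 to 11.0 CPM in heated BTS and from 2.33 to 8.72 CPM in heated F1, with 0 counts in heated CTS and in the CTSbc brain. The feature lgals4-a, named as a galectin, was at 5.54 CPM in the CTSbc brain, above all heated F1 brains, which reached 3.06 CPM. The feature homeobox reached 3.17 CPM in heated BTS brains and 4.58 CPM in 1 heated CTS brain, so heated animals did not repeat its difference between the control groups (-0.68 ± 1.69, adjusted p = 0.85, edgeR).

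In muscle, the feature whose name begins with newt held 2.65 to 26.9 CPM in heated BTS, 0 to 11.0 CPM in heated F1 and at most 0.133 CPM in heated CTS (7.28 ± 1.57, adjusted p = 0.00038, edgeR). Its brain levels did not exceed 0.438 CPM in BTS, F1 or CTS.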
